A study of Mus musculus with 8 samples.

Results

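The comparison described here sets RNA-seq of KLF4-KO mouse embryonic stem cells against RNA-seq of their unmodified counterparts across the whole transcriptome, read by the function of the genes and by how strongly they are expressed. Its members are the 4 gene count libraries of the 8 samples in the series, 2 from wild-type E14 cells (WT replicates 1 and 2) and 2 from Klf4 knockout cells (KO libraries B and F). E14 is a male line of pluripotent cells grown from the mouse blastocyst. The labels give the same culture media for both genotypes, with 15% serum and either 10 ng/mL of the cytokine LIF with 1 µM of the MEK inhibitor PD0325901 and 3 µM of the GSK3 inhibitor CHIR99021, or 1000 U/mL LIF, and do not say which of them each RNA library came from. The sources used here do not say whether the KO libraries are 1 clone or several.

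KLF4 is a zinc finger transcription factor that binds GC-rich sequences, often written as GGGNGTGG, in promoters and enhancers, where it can act as an activator or a repressor. In embryonic stem cells it belongs to the network that keeps the cells in the naive state and lies downstream of LIF. That network is usually described through a limited set of transcription factor genes, whereas what a cell senses, imports, secretes and metabolises is set by the receptors, carriers, ligands and enzymes described below.

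Klf4 (ENSMUSG00000003032, chromosome 4, 55527137 to 55532475, build mm10) had 2882 and 2421 counts in WT replicates 1 and 2 and 0 in both KO libraries. This is at least 1594-fold lower in KO, measured against 3 counts over both KO libraries (edgeR FDR 1.91e-04). Library totals of gene counts lay between 8287497 and 9762190. Across genes, log2 CPM (gene counts scaled to a common library size) had a Pearson r of 0.96 within WT, 0.97 within KO and 0.89 to 0.93 between genotypes. All 10 listed embryonic stem cell markers were expressed, with a summed level of 6837 to 8890 CPM in the 4 libraries. Fibroblast and feeder markers summed to 8.39 and 8.92 CPM in WT and 15.7 and 12.3 CPM in KO, and Lum, Postn and Prrx1 were at 0 in every library. Primitive endoderm markers summed to 252 and 295 CPM in WT and 103 and 92.0 CPM in KO, with Sparc, at a mean of 177 CPM, the most abundant, and neural progenitor markers to 35.4 and 40.2 against 21.6 and 14 CPM. Of the 4 tested primitive endoderm markers 1 was called higher and 1 lower, and of the 3 tested neural progenitor markers also 1 higher and 1 lower. Trophoblast markers summed to 95.1 and 110 CPM in WT and 145 and 78.9 CPM in KO. Of the 5 tested trophoblast markers 1 was called higher, and of the 10 embryonic stem cell markers also 1, with none lower in either set. The part of these cell types in the results was not tested, and in bulk RNA fewer cells of a type and less RNA per cell cannot be told apart.

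Of 52636 gene identifiers, 15517 had enough counts to be tested, and 1288 of them (8.3%) differed at a false discovery rate (FDR) of 0.05 in edgeR's quasi-likelihood test. In KO 460 (2.96%) were higher and 828 (5.34%) lower. Genes that rose took up 1.37% and 1.25% of the gene counts in WT, against 4.11% and 4.01% in KO, and genes that fell went from 4.86% and 4.71% to 1.55% and 1.61%. Switches between no reads and some were rare among the calls: 9 of the 460 had no count in WT and 31 of the 828 none in KO. The fits without each library in turn all kept 594 of the 1288 calls (46.1%), 212 higher and 382 lower. None of the 1288 genes was called in the opposite direction in those fits. Without WT replicate 1, 2517 genes were called, and with no filter on low counts only 2 were, with 4021 at an unadjusted p under 0.05.

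The share of genes called ranged widely over the functional classes. Secreted signals had the highest, with 29 of 138 tested genes (21%), followed by receptors with 46 of 304 (15.1%), transporters and channels with 63 of 476 (13.2%), transcription factors with 105 of 855 (12.3%) and enzymes with 196 of 1825 (10.7%). Long non-coding RNAs (lncRNAs) had 56 of 793 (7.06%), and the 10693 tested genes in none of these classes 786 (7.35%). Core machinery, meaning ribosome, proteasome, splicing, translation and respiratory chain subunits, had 7 of 433 (1.62%). Median log2 fold changes were -0.25 for receptors, -0.20 for transporters and channels and -0.12 for secreted signals, against 0.00 over all tested genes, and 0.01 for transcription factors, 0.00 for enzymes and 0.03 for lncRNAs. These shares are descriptions, since the power to call a gene depends on its level and the classes differ in level. Counts of the families below are to be read beside 2.96% higher and 5.34% lower over all tested genes.

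**Figure D1:**
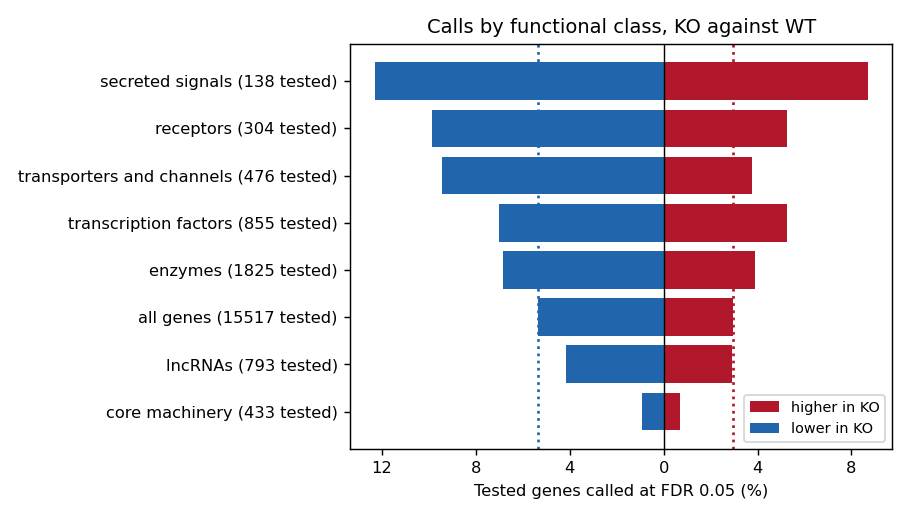
Share of tested genes called higher (right, red) and lower (left, blue) in KO at FDR 0.05, in percent, for each functional class. Dotted lines mark the shares over all tested genes, 2.96% higher and 5.34% lower, and secreted signals reach 8.7% and 12.3%.

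Among secreted signals 12 rose and 17 fell, and without KO library F 15 rose and 14 fell. The cytokine genes Osm (chromosome 11, 4236785 to 4241026) and Lif (chromosome 11, 4257568 to 4272514) are neighbours that encode ligands of the IL6 family, and both fell. Osm had 103 and 120 counts in WT, against 7 and 1 in KO. Lif had 141 and 103 in WT and 19 and 26 in KO. The genotypes did not overlap for either gene, as the rule for naming genes required and as held for 53.5% of all tested genes. The falls were 25.1-fold for Osm (12 ± 1.49 to 0.478 ± 0.509 CPM, SD, n = 2, edgeR FDR 0.0076) and 4.89-fold for Lif (13.1 ± 2.67 to 2.68 ± 0.568 CPM, edgeR FDR 0.016). The cells received LIF protein with the medium, which these counts do not measure.

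Ligands and antagonists of the TGF-beta family fell in 5 of 23 tested cases and rose in 1. Inhbb, which encodes the beta B subunit of activins and inhibins, had 81 and 92 counts in WT, against 283 and 575 in KO, a 5.48-fold rise (edgeR FDR 0.0100). Fst encodes follistatin, which binds and blocks activins, and had 153 and 141 counts in WT, against 22 and 43 in KO (4.09-fold lower, edgeR FDR 0.025). Counts of the subunit gene and of the antagonist gene thus moved in opposite directions, with no overlap of the genotypes for either, which the naming rule required. The proteins were not measured. The Fst call was lost without KO library B (edgeR FDR 0.069). Gdf15, a stress-responsive ligand, fell 4.01-fold, with 278 and 474 counts in WT, against 71 and 99 in KO.

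Of the other secreted signals, Trh, the gene of thyrotropin-releasing hormone, rose 5.33-fold to 68.1 ± 10.4 CPM. Pdyn, the opioid peptide precursor, had 2 and 1 counts in WT, against 24 and 47 in KO, a ratio of 26.2 (95% counting interval 8.62 to 130, exact, for counting error alone). Calca, the calcitonin and CGRP gene, rose 3.57-fold. The semaphorin gene Sema3e, a guidance cue for axons and vessels, rose 11.9-fold from 8 and 7 counts to 78 and 83. Il17d rose 7.12-fold from 14 counts in each WT library to 80 and 100 and lies on chromosome 14, which is described further on. Ephrin A3, encoded by Efna3, fell 4.17-fold, and Rgma, of the repulsive guidance molecules, 3.55-fold. None of these genes had overlapping genotypes, which the naming rule required for Trh, Sema3e, Il17d and Efna3.

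Because the lost factor binds DNA, the 250 bases before the annotated starts were searched for GGGNGTGG on both strands (CCACNCCC on the other), where N is any base and overlapping matches count. Sequences are from RefSeq on GRCm38.p6, the assembly of mm10, written 5′ to 3′ on the gene's strand with matches in capitals. Lif and Inhbb are shown as ligand genes that moved in opposite directions, chosen after their values were seen. The Lif window (chr11:4257318-4257567, plus strand) holds 2 matches, the nearest 65 bases before the start, and the Inhbb window (chr1:119422249-119422498, minus strand) 1 match, 174 bases before it.
Lif: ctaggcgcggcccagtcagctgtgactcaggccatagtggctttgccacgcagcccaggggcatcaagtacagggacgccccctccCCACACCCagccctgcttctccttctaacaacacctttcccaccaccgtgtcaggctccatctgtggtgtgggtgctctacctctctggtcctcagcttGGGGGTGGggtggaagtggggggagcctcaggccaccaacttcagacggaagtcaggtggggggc
Inhbb: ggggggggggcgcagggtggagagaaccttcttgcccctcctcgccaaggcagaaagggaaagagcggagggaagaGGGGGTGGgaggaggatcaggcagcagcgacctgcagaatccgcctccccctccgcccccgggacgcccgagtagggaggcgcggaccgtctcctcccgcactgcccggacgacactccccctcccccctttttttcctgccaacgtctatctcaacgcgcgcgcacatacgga
In all, 17.9% of the 27025 genes with a promoter in the table hold a match, and 24.8% of the 10292 tested protein-coding genes with one. Such a match is a string of letters and not a measured binding site. A promoter entry was found for 77.1% of the genes called higher and 77.4% of those called lower, under the 80% set for such a comparison, so the check of called genes against the rest is void. Of the 140 genes named by rule, windows were counted for only a part, 45 higher and 66 lower, of which 11 and 17 hold a match. The naming rule picked these genes by their change, so the counts do not compare higher with lower genes either.

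Of the receptors called, 30 were lower and 16 higher. Frizzled receptors bind WNT ligands, and a pair of them went opposite ways. Fzd7 (chromosome 1, 59482147 to 59486955) had 498 and 312 counts in WT, against 1322 and 1303 in KO, while Fzd10 (chromosome 5, 128601106 to 128604093) had 526 and 341 in WT and 35 and 52 in KO. At similar CPM in WT (43.4 ± 13.4 and 46.5 ± 13.3), they were 3.60-fold higher and 8.98-fold lower in KO (edgeR FDR 0.0093 and 0.0038, SD, n = 2). The counts in KO left a gap to WT for both receptors, as the naming rule required.

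**Figure D2:**
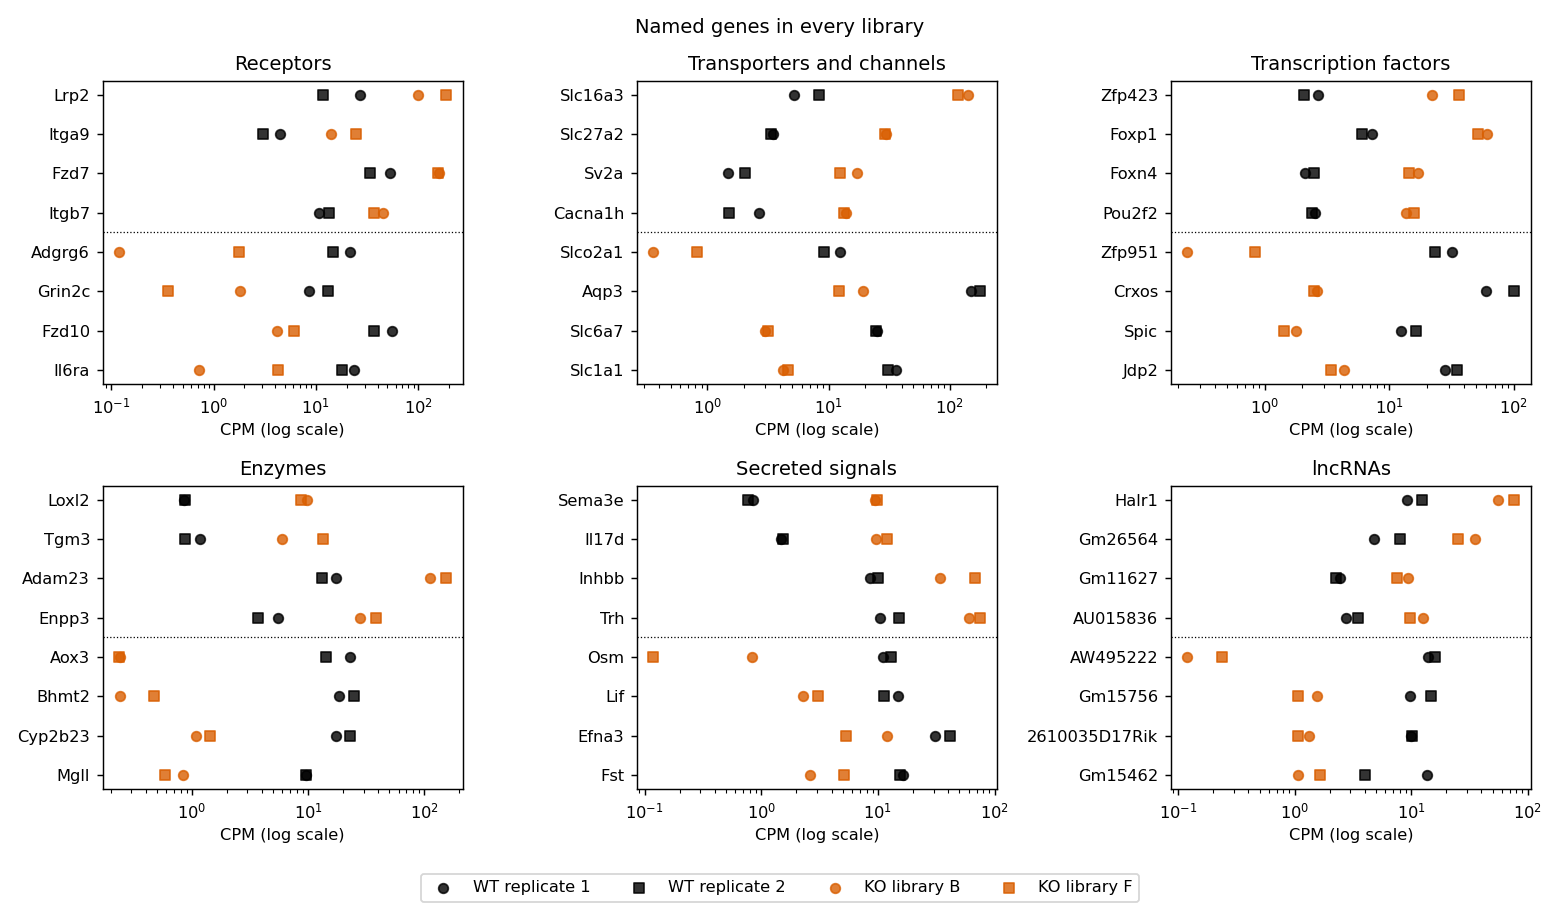
CPM on a log scale in each of the 4 libraries (black for WT, orange for KO) for up to 4 higher genes (above the dotted line) and 4 lower genes (below it) in each of 6 classes. The genotypes did not overlap for any of them, which the naming rule required, and the WT points of Gm15462 lie farther apart (129 and 37 counts) than those of its neighbours.

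Of 48 cytokine, TNF and innate immune receptors, 7 were lower and none higher in edgeR, limma voom and DESeq2, with 6 higher at an unadjusted edgeR p under 0.05. Il6ra, the alpha chain of the IL6 receptor, had 222 and 164 counts in WT, against 6 and 36 in KO (8.31-fold lower, edgeR FDR 0.027). Tnfrsf1a, a main receptor of TNF, fell 3.94-fold, Il17rc, a chain of the IL17 receptors, 5.36-fold and Tnfrsf19 on chromosome 14 3.10-fold. KO library B had the lower count for Il6ra, but library F was still below both WT libraries, as the naming rule required. The Tnfrsf19 call was lost without KO library F (edgeR FDR 0.055).

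Endocytic and scavenger receptors had 4 of 26 higher (15.4%) and 2 lower (7.69%), against 2.96% and 5.34% over all tested genes. Lrp2 encodes megalin, a large receptor for uptake of lipoproteins, vitamins and signalling proteins, and had 256 and 108 counts in WT, against 835 and 1583 in KO (7.38-fold higher, edgeR FDR 0.010). Cubn, the gene of its partner cubilin, had 0 counts in both WT libraries and 15 and 19 in KO, at least 12.5-fold higher. Tfr2, a transferrin receptor, had 7 counts in each WT library and 59 and 42 in KO. All 3 had both KO libraries above both WT libraries, which the naming rule required for Lrp2. Lrp2 was the one at a substantial level, 144 ± 61.9 CPM in KO.

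The integrin genes Itga9 and Itgb7, for cell adhesion receptor chains, rose 5.18-fold and 3.37-fold. Of 95 G protein-coupled and Frizzled receptors 10 were lower (10.5%) and 3 higher (3.16%), against 5.34% and 2.96% over all tested genes. Among them the adhesion receptor gene Adgrg6 had 201 and 135 counts in WT, against 1 and 15 in KO (19-fold lower, edgeR FDR 0.014), and Adgrg1 fell 4.76-fold. Ligand-gated channel receptors had 5 of 27 lower and 2 higher. The NMDA receptor subunit genes Grin2c and Grin1 fell 10.1-fold and 3.77-fold, and the glutamate receptor gene Grid1, on chromosome 14, had 32 and 23 counts in WT and none in KO, at least 16.5-fold lower. Among receptor tyrosine kinases Epha8, an ephrin receptor, had 0 and 2 counts in WT, against 33 and 23 in KO, a ratio of 31 (95% counting interval 8.20 to 262), whereas Ltk and the collagen receptor gene Ddr2 fell 5.02-fold and 4.69-fold. The Ltk call was lost without KO library F (edgeR FDR 0.062) and that of Ddr2 without KO library B (edgeR FDR 0.066) and on library totals (edgeR FDR 0.055).

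Transporters and channels showed 45 falls and 18 rises, and 40 calls in all without KO library B. The largest rise by the naming rule was in Slc16a3 (chromosome 11, 120948484 to 120959000), which encodes MCT4, a carrier that exports lactate from glycolytic cells. It had 49 and 77 counts in WT, against 1176 and 989 in KO. Its level went from 6.79 ± 2.24 to 129 ± 16.8 CPM (SD, n = 2), 19-fold higher (edgeR FDR 0.0012), the KO libraries close together and far above WT. The annotated span of Slc16a3 overlaps that of Csnk1d, and the strand setting of the counts is not given, so reads in the overlap are uncertain. The fatty acid carrier gene Slc27a2 had 33 and 31 counts in WT and 246 in each KO library, an 8.52-fold rise. Sv2a, a protein of synaptic vesicles, rose 8.28-fold, and the calcium channel genes Cacna1h and Cacna1b 6.56-fold and 8.62-fold, from low WT levels of 0.858 to 2.09 CPM for these channels.

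Of 13 tested gap junction and water channel genes, 5 fell and 1 rose. Aqp3 (chromosome 4, 41092724 to 41098183), an aquaporin that passes water and glycerol, had 1396 and 1636 counts in WT, against 160 and 102 in KO, a 10.4-fold fall from 163 ± 20.9 CPM (edgeR FDR 0.0020). Gja1, which encodes connexin 43, had 387 and 287 counts in WT, against 836 and 861 in KO (2.79-fold higher, edgeR FDR 0.014). The genotypes did not overlap for either gene, which the naming rule required for Aqp3.

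Glutamate carriers of one family also split. Slc1a1 (EAAT3) fell 7.61-fold, from 339 and 285 counts to 35 and 39, and Slc1a3 (EAAT1) rose 4.10-fold, from 78 and 67 to 226 and 311. The proline carrier gene Slc6a7 fell 8.05-fold from 24.9 ± 0.197 CPM, with 25 and 27 counts in KO. Atp1b1, a beta subunit gene of the sodium pump, fell 2.39-fold from 325 ± 33.9 CPM. The Atp1b1 call was lost when either KO library was left out (edgeR FDR 0.14 without B and 0.18 without F), at a log2 fold change of -1.28 and -1.23, against -1.25 with both.

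Metal carriers had 4 of 26 lower (15.4%) and 1 higher (3.85%), against 5.34% and 2.96% over all tested genes. The zinc carrier genes Slc30a2, Slc39a4 and Slc39a11 fell 3.47-fold, 3.05-fold and 3.05-fold, with edgeR FDRs of 0.054 for Slc39a4 without KO library B and 0.066 for Slc39a11 without KO library F. TRP and mechanosensitive channels had 4 of 21 lower in edgeR and limma voom, 3 in DESeq2 and 7 at an unadjusted edgeR p under 0.05, and none higher in any of these. Pkd2l1 fell from 46 and 59 counts to 0 and 2, a ratio of 47.4 (95% counting interval 12.8 to 396), whereas Trpv3 and Trpm6 were weak in WT, at 1.94 ± 0.0319 and 2.31 ± 0.418 CPM. The Trpv3 call was lost in DESeq2 (adjusted p = 0.089) and when WT replicate 2, KO library B or KO library F was left out (edgeR FDR 0.054 to 0.20), and that of Trpm6 without KO library F (edgeR FDR 0.12). Carriers of nucleosides and nucleotide sugars had 4 of 28 lower in edgeR and 5 in limma voom, with none higher in either (1 higher in DESeq2 and 4 at an unadjusted edgeR p under 0.05). They included Slc35a1, the CMP-sialic acid carrier of the Golgi (2.28-fold lower, edgeR FDR 0.15 and 0.25 without KO library B and F). The prostaglandin carrier gene Slco2a1 had 118 and 85 counts in WT, against 3 and 7 in KO, an 18.3-fold fall. Of 23 ABC transporters none was called by edgeR, DESeq2 or limma voom (2 higher and 3 lower at an unadjusted edgeR p under 0.05), at a median log2 fold change of -0.37.

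**Figure D3:**
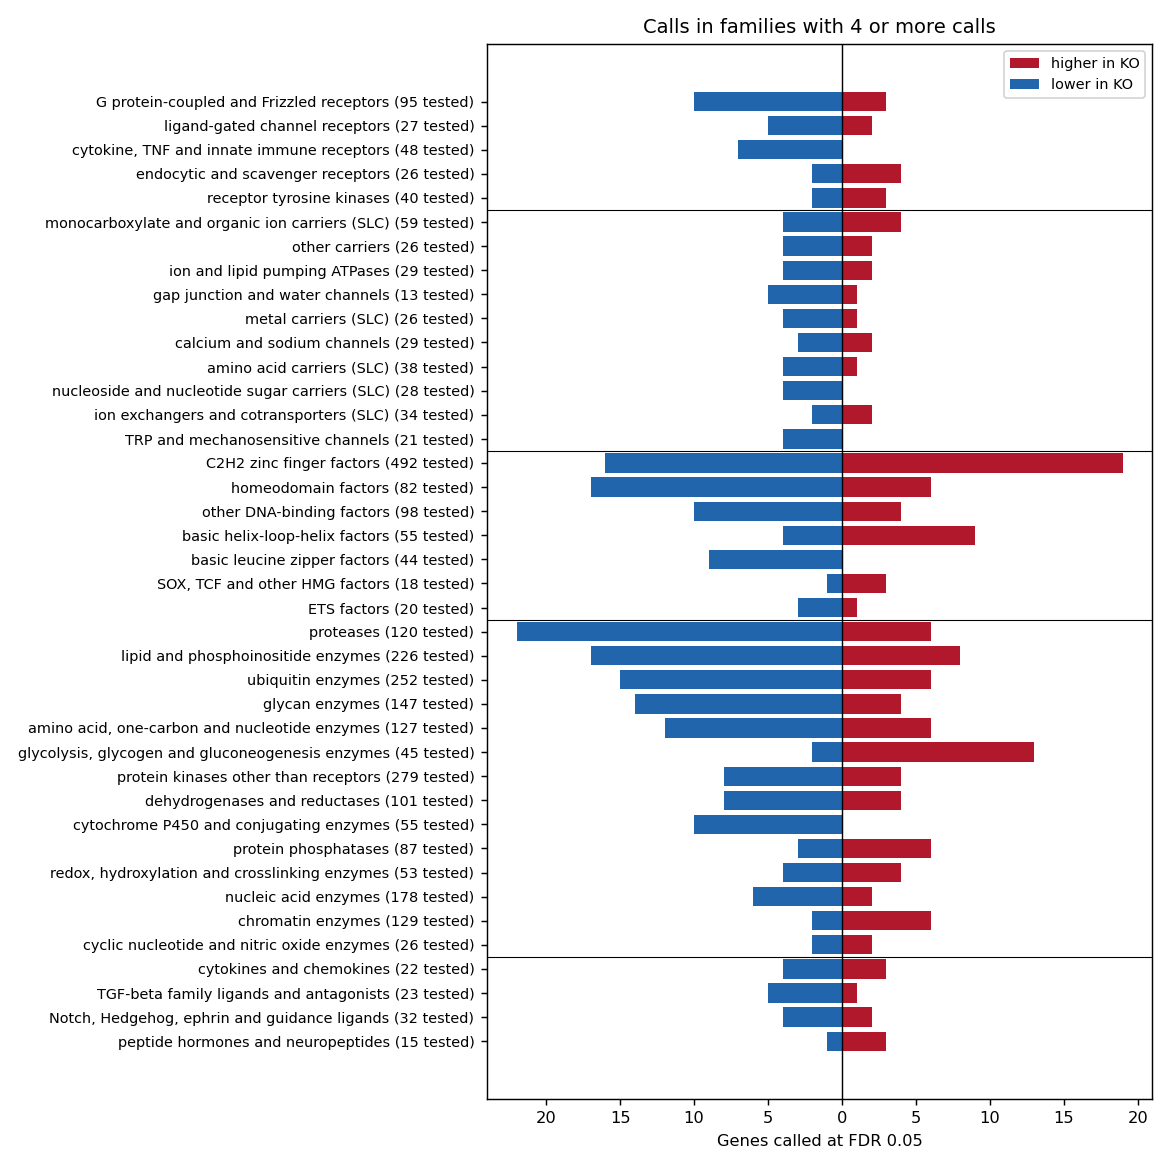
Number of genes called higher (right, red) and lower (left, blue) in KO at FDR 0.05 in the families with 4 or more calls, grouped by class, with the number tested in parentheses. Basic leucine zipper factors, cytokine receptors, cytochrome P450 and conjugating enzymes, TRP channels and nucleotide sugar carriers have bars to the left only, and glycolysis enzymes the longest bar to the right within the enzymes.

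Among transcription factors 45 rose and 60 fell, but without WT replicate 1 the balance turned, with 91 higher and 79 lower of 170 called. Zfp423 (chromosome 8, 87661810 to 87962053), a zinc finger regulator of progenitor and fat cell genes, had 25 and 19 counts in WT, against 184 and 306 in KO (12.3-fold higher, edgeR FDR 0.0038). Foxp1, a forkhead factor, had 68 and 56 counts in WT, against 504 and 438 in KO (8.43-fold higher, edgeR FDR 0.0023). Foxn4 and Pou2f2, the gene of OCT2, rose 6.80-fold and 5.97-fold from 2.31 ± 0.266 and 2.47 ± 0.111 CPM (SD, n = 2). The 4 genes were low in both WT libraries and separated from both KO libraries, a separation that the naming rule required.

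Basic leucine zipper factors fell in 9 of 44 cases in edgeR, DESeq2 and limma voom, with 15 lower at an unadjusted edgeR p under 0.05, and none was higher in any of these. Jdp2, a repressor of the AP-1 family, had 263 and 322 counts in WT, against 36 and 29 in KO, an 8.13-fold fall. Atf3 and Jun, which respond to stress and growth signals, fell 6.64-fold from 13.4 ± 0.982 CPM and 6.27-fold from 14.9 ± 3.36 CPM. The others called were Atf5, Bach2, Cebpb, Creb3l2, Ddit3 and Tef, with log2 fold changes from -2.76 (Bach2) to -1.11 (Tef). They were named after their values were seen.

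Homeodomain factors fell in 17 of 82 cases and rose in 6. Crxos (chromosome 7, 15882617 to 15904030), a homeobox gene, had 565 and 929 counts in WT, against 22 and 21 in KO, a 31.4-fold fall from 80.5 ± 29 CPM (edgeR FDR 0.0012). Tlx2 fell from 53 and 82 counts to 0 and 2, a ratio of 60.9 (95% counting interval 16.5 to 508). Factors with an ETS domain fell in 3 of 20 cases (15%) and rose in 1 (5%), against 5.34% and 2.96% over all tested genes. Elf3, an epithelial ETS factor, was the most abundant of those named, falling 5.71-fold from 171 ± 46.5 to 29.9 ± 4.78 CPM. Spic fell 8.90-fold and its blood cell relative Spi1 10.5-fold, the latter from 29 and 41 counts to 5 and 1 (edgeR FDR 0.078 without KO library F).

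Basic helix-loop-helix factors rose in 9 of 55 cases and fell in 4. Mycn, a driver of growth and biosynthesis, had 649 and 530 counts in WT, against 1426 and 1410 in KO (2.67-fold higher, edgeR FDR 0.012). Hes1, a Notch target that represses differentiation genes, fell 3.85-fold from 81.9 ± 24.3 CPM, and Id4, an inhibitor of such factors, 4.33-fold. C2H2 zinc finger genes, the largest family with 492 tested, had 19 higher and 16 lower, or 7.11% called, against 8.3% over all tested genes. Zfp951 had 300 and 213 counts in WT, against 2 and 7 in KO, a 51.5-fold fall, and Zbtb10 fell 6.45-fold. Many genes of this family have close relatives, so counts of a single member such as Zfp951 are uncertain. Among other DNA-binding factors E2f8, a cell cycle repressor, rose 4.57-fold, whereas Tbx18 fell 20.9-fold, from 48 and 45 counts to 3 and 1.

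Enzymes had 71 rises and 125 falls, and 330 calls in all without WT replicate 1. Cytochrome P450 and conjugating enzymes, which modify foreign compounds, sterols and other lipids, fell in 10 of 55 cases with no rise in edgeR or limma voom (1 in DESeq2 and 5 at an unadjusted edgeR p under 0.05). Aox3 (chromosome 1, 58113135 to 58202221), an aldehyde oxidase gene, had 215 and 130 counts in WT and 2 in each KO library, 77.6-fold lower (edgeR FDR 0.0020). Cyp2b23 fell 16-fold, from 163 and 209 counts to 9 and 12, and Ephx2, the soluble epoxide hydrolase gene on chromosome 14, fell 9.23-fold from 151 ± 20.7 CPM. Aox and Cyp2b genes belong to clusters of close relatives, so the assignment of reads between them is uncertain.

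Enzymes of amino acid, one-carbon and nucleotide metabolism had 12 of 127 lower and 6 higher. Bhmt2 (chromosome 13, 93656097 to 93674302), a methyltransferase gene of methionine synthesis, had 174 and 229 counts in WT, against 2 and 4 in KO, a 60.8-fold fall (edgeR FDR 0.0017). Aldh1l1, a folate enzyme gene, fell 5.51-fold from 50.0 ± 8.73 CPM. Ckb, which encodes the brain type of creatine kinase, had 6733 and 11571 counts in WT, against 1336 and 702 in KO, 8.12-fold lower from 987 ± 384 CPM (edgeR FDR 0.0066). It had the largest absolute change of the genes at a mean of 200 CPM and over. The adenylate kinase gene Ak4 fell 3.30-fold from 242 ± 33.3 CPM.

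Proteases fell in 22 of 120 cases and rose in 6, and glycan enzymes fell in 14 of 147 and rose in 4. The lysosomal genes Ctsb, for cathepsin B, and Hexa, for a hexosaminidase chain, fell 6.60-fold (from 263 ± 41.7 CPM) and 7.34-fold (from 237 ± 57.3 CPM), and St14, for the membrane protease matriptase, fell 4.52-fold from 249 ± 28.1 CPM. Ctsb lies on chromosome 14. Adam23, of a family of membrane proteins whose protease domain can be inactive, went against them, with 164 and 120 counts in WT, against 936 and 1299 in KO (8.73-fold higher, edgeR FDR 0.0023). In the glycan group Galnt6, which starts O-linked chains, fell 4.57-fold and B3gnt7, a chain-extending enzyme, rose 3.59-fold to 107 ± 1.77 CPM.

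Lipid and phosphoinositide enzymes had 17 of 226 lower (7.52%) and 8 higher (3.54%), near the 5.34% and 2.96% over all tested genes. Those that fell included Mgll, the monoacylglycerol lipase gene (13.4-fold lower, 90 and 88 counts in WT, against 7 and 5 in KO), and the peroxisomal oxidase gene Acox3 (6.30-fold lower). Enzymes that crosslink or hydroxylate matrix and other proteins had 4 higher and 4 lower of 53. Loxl2, a collagen crosslinking enzyme, had 8 counts in each WT library and 82 and 73 in KO (10.7-fold higher) and lies on chromosome 14. P4ha1, a collagen prolyl hydroxylase gene, rose 2.91-fold (edgeR FDR 0.052 without KO library B). The transglutaminase genes split, Tgm3 9.56-fold higher and Tgm2 4.18-fold lower.

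Protein kinases other than receptors had 4 of 279 higher and 8 lower (4.3% called) and chromatin enzymes 6 of 129 higher and 2 lower (6.2%). Nucleic acid enzymes had 2 of 178 higher and 6 lower (4.49%, with 8 higher and 7 lower in DESeq2). Ubiquitin enzymes had 6 of 252 higher and 15 lower (8.33%). Over all tested genes 8.3% were called, near the share of ubiquitin enzymes and above those of the other families named here. Camkv, a kinase-like protein of neurons, rose 6.79-fold, from 86 and 66 counts to 567 and 362. The deubiquitinase gene Usp44 rose 6.37-fold and the ubiquitin ligase gene Rnf145 3.55-fold. Eya1, a phosphatase and transcription coactivator, fell 7.61-fold. In the chromatin group Chd7, a remodeller, rose 2.81-fold (edgeR FDR 0.058 on library totals only), and the methyltransferase gene Smyd2 fell 2.75-fold (edgeR FDR 0.17 without KO library F).

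Glycolysis, glycogen and gluconeogenesis enzymes had the highest share of calls among the enzyme families, with 13 of 45 higher and 2 lower (33.3%), and several were among the most abundant transcripts. Pkm (chromosome 9, 59656576 to 59679372), the pyruvate kinase gene, had 7867 and 8458 counts in WT, against 25630 and 23443 in KO, from 878 ± 59.4 to 2923 ± 207 CPM (3.33-fold higher, SD, n = 2, edgeR FDR 0.011). Pfkl, the liver type of phosphofructokinase, rose 3.93-fold, from 891 and 1068 counts to 3966 and 2983, and Tpi1, the triosephosphate isomerase gene, 3.26-fold. Eno1b, a near-identical copy of the enolase gene Eno1, rose 2.47-fold, but reads cannot be assigned between the copies with certainty, and the call was lost when either KO library was left out (edgeR FDR 0.20 without B and 0.054 without F). Gpd2, counted among the dehydrogenases and reductases, passes electrons from glycerol phosphate to the respiratory chain and rose 3.03-fold. Pck2, on chromosome 14, which feeds gluconeogenesis from mitochondria, fell 3.70-fold from 311 ± 63.7 CPM.

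The other leading genes at a mean of 200 CPM and over were Phc1, a Polycomb protein gene, which rose 2.65-fold to 911 ± 26.4 CPM, and on the lower side Cd81, a tetraspanin (3.10-fold), Alpl, the tissue-nonspecific alkaline phosphatase (3.06-fold), Mfge8, a secreted bridge between dying cells and phagocytes (2.84-fold), and Gnai2, a G protein subunit (2.83-fold). Alpl had 4235 and 5200 counts in WT, against 1552 and 1229 in KO, and Mfge8 had 3110 and 4469 in WT and 1387 and 1023 in KO. Neither showed overlap between genotypes, which the naming rule required. Each of these 5 calls was lost when a KO library was left out. Without KO library F, edgeR FDRs were 0.10 for Alpl, 0.060 for Cd81, 0.16 for Mfge8, 0.088 for Gnai2 and 0.065 for Phc1, and without KO library B they were 0.074 for Gnai2 and 0.071 for Phc1. The log2 fold changes in these fits were -1.44 for Alpl, -1.56 for Cd81, -1.29 for Mfge8, -1.50 for Gnai2 in both fits and 1.44 (without F) and 1.37 (without B) for Phc1, against -1.62, -1.63, -1.51, -1.50 and 1.40 with all libraries. Promoters of the leading glycolysis gene and of a secreted protein gene that fell are shown, chosen after their values were seen. The Mfge8 window (chr7:79149061-79149310, minus strand) holds 1 match to GGGNGTGG, 138 bases before the start, and the Pkm window (chr9:59656326-59656575, plus strand) none, while a window before another annotated start of Pkm holds 2.
Pkm: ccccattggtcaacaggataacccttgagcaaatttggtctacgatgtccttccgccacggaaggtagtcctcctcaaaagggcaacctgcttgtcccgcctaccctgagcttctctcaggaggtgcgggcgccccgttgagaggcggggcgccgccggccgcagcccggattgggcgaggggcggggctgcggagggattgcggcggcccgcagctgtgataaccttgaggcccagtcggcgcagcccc
Mfge8: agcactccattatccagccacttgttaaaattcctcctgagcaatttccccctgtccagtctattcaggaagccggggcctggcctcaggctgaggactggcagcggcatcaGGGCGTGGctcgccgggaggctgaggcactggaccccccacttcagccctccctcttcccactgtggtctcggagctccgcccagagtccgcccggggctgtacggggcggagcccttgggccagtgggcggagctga
As for Lif and Inhbb, matches lie before the gene that rose and the gene that fell, for Pkm only in the window not shown. The genes were picked, so this does not describe the called genes as a set.

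Of 4526 listed lncRNAs, 793 were tested, and 23 rose and 33 fell. The balance turned without WT replicate 1 (74 higher and 53 lower of 127 called) and without KO library B (27 higher and 25 lower). Halr1 (chromosome 6, 52102949 to 52113684), transcribed beside the Hoxa cluster, had 87 and 113 counts in WT, against 463 and 649 in KO (6.14-fold higher, 66.2 ± 15.1 CPM in KO, edgeR FDR 0.0039). AW495222 (chromosome 13, 93706100 to 93719175) fell from 132 and 147 counts to 1 and 2, a ratio of 83.9 (95% counting interval 28.4 to 410). Gm26564 rose 4.71-fold, and Gm15756 and 2610035D17Rik fell 9.28-fold and 8.44-fold, each with no overlap between genotypes, as the naming rule required. AW495222 overlaps the annotated span of Dmgdh, which lies in the same stretch of chromosome 13 as Bhmt2, and Gm15756 that of Aldh1l1, which fell too. The sources used here do not give the strand setting of the counts, so reads of these overlapping genes cannot be told apart. The Gm15462 call was lost without WT replicate 1 (edgeR FDR 0.17), on library totals (edgeR FDR 0.064) and in limma voom (adjusted p = 0.098). Gm11627 and AU015836, which rose 3.60-fold and 3.57-fold, had edgeR FDRs of 0.11 and 0.081 without KO library B, and Gm11627 one of 0.069 without WT replicate 2. Of the 116 tested lncRNAs with names other than Gm and Rik identifiers, 9 were called.

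Core machinery gave the fewest calls, 3 higher and 4 lower of 433. Named after their values were seen, these were Mrps23, Ndufa4l2 and Snrpn on the higher side and Cox6a2, Eif2b5, Gm8994 and Srsf12 on the lower. Ndufa4l2, a subunit-like protein of the respiratory chain, had 9 and 14 counts in WT, against 204 and 81 in KO. Eif2b5, a translation initiation factor gene, was the only one of the 7 above 200 CPM and fell by 1.09 on the log2 scale (edgeR FDR 0.034). None of 80 cytosolic ribosomal protein genes was called by edgeR, DESeq2 or limma voom (3 lower at an unadjusted edgeR p under 0.05), at a median log2 fold change of -0.38.

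Libraries of one genotype differed in these same genes. WT replicate 2 exceeded WT replicate 1 by a median log2 ratio of 0.59 over core machinery and 0.85 over the cytosolic ribosomal proteins, and KO library F was below KO library B by -0.27 and -0.55. Core machinery took up 14.5% and 20.1% of the counts in WT replicates 1 and 2 and in KO 16.8% (library B) and 13.6% (library F). The number of calls in this class followed the WT library used: 61 without WT replicate 1, of which 53 were lower, and 21 without WT replicate 2, of which 15 were higher. Without KO library F 5 were higher and 1 lower. Ranges of the genotypes did not overlap for 29.3% of core machinery genes and 66.8% of receptors, against 53.5% of all tested genes.

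**Figure D4:**
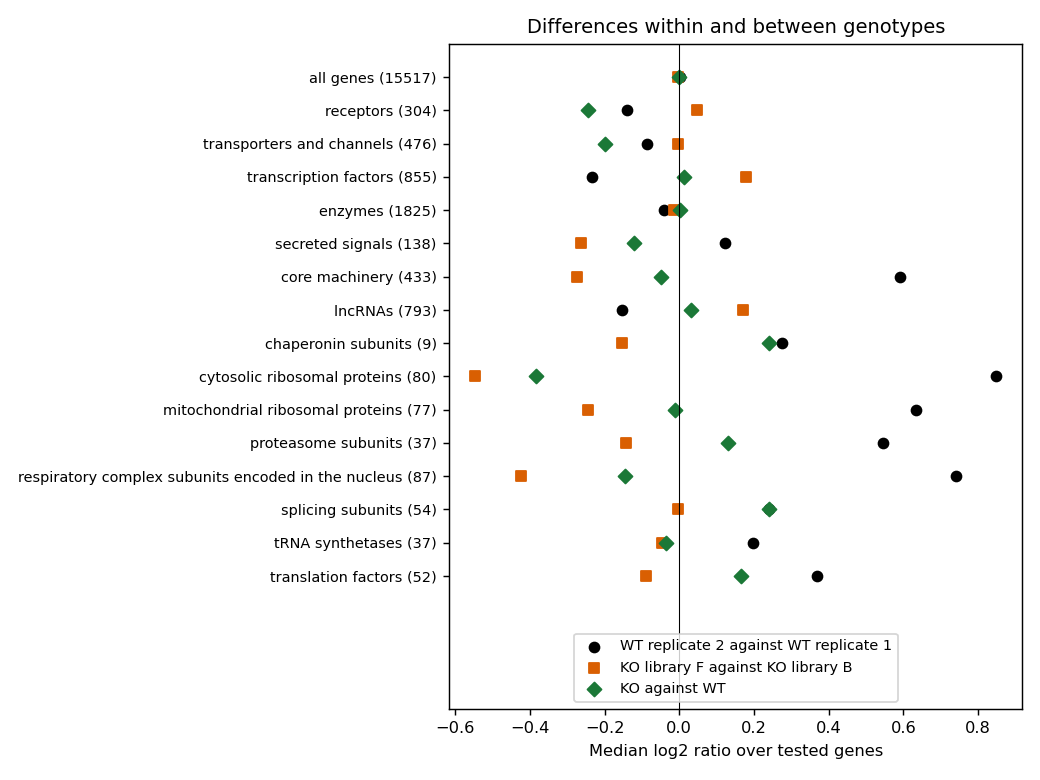
Median log2 ratio over the tested genes of each class or core machinery family between the WT libraries (black circles), between the KO libraries (orange squares) and between genotypes (green diamonds), with the number of genes in parentheses. Core machinery families lie farther from 0 between the WT libraries, up to 0.85 for cytosolic ribosomal proteins, than between genotypes, where the ribosomal proteins are at -0.38, except splicing subunits, at 0.24 in both.

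By mean level over the 4 libraries, 8.78% of 1652 genes under 2 CPM were called, 9.68% of 3862 at 2 to 10 CPM, 8.98% of 5489 at 10 to 50 CPM, 6.2% of 3630 at 50 to 200 CPM and 5.77% of 884 at 200 CPM and over. Falls made up 61.4%, 65.2%, 67.3%, 60.0% and 54.9% of the calls in these ranges. The size of change that could be called fell with level: the smallest absolute log2 fold change called was 2.38 under 2 CPM, 1.41 at 2 to 10 CPM and 0.94 at 200 CPM and over. All 145 calls under 2 CPM were over 4-fold on the fitted scale, compared with 6 of the 51 at 200 CPM and over. A 2-fold change of a weak receptor or lncRNA gene was therefore not detectable here. Without WT replicate 1 the ranges from 2 to 10 CPM upward had 563, 943, 658 and 153 calls. Without KO library B the last 2 ranges had 129 and 24, and without KO library F 120 and 14. The balance of falls and rises in these 2 ranges depended on the libraries used. Falls were 47.3% of the calls at 50 to 200 CPM without WT replicate 1, and at 200 CPM and over they were 45.8% without KO library B, 42.9% without KO library F and 50% in DESeq2.

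Median differences between genotypes and between libraries of one genotype were of similar size for abundant genes, but the measures are unlike. The genotype value is a fitted change over 2 libraries per side, and the replicate value a ratio of single libraries with 0.5 CPM added. The median absolute log2 fold change was 0.84 under 2 CPM, 0.63 at 2 to 10 CPM and 0.40, 0.32 and 0.33 in the ranges above. Between the WT libraries the median absolute log2 ratio was 0.45, 0.44, 0.39, 0.36 and 0.39, and between the KO libraries 0.47, 0.46, 0.30, 0.24 and 0.26. Classes differed in where their calls lay. Of 130 enzymes under 2 CPM 10 fell in edgeR and limma voom and 6 in DESeq2, and none rose in these tests (13 higher at an unadjusted edgeR p under 0.05), whereas of 135 at 200 CPM and over 12 rose and 6 fell. Receptors had 11 of 50 called under 2 CPM (22%) and transcription factors 17 of 85 (20%), against 8.78% of all tested genes in this range.

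**Figure D5:**
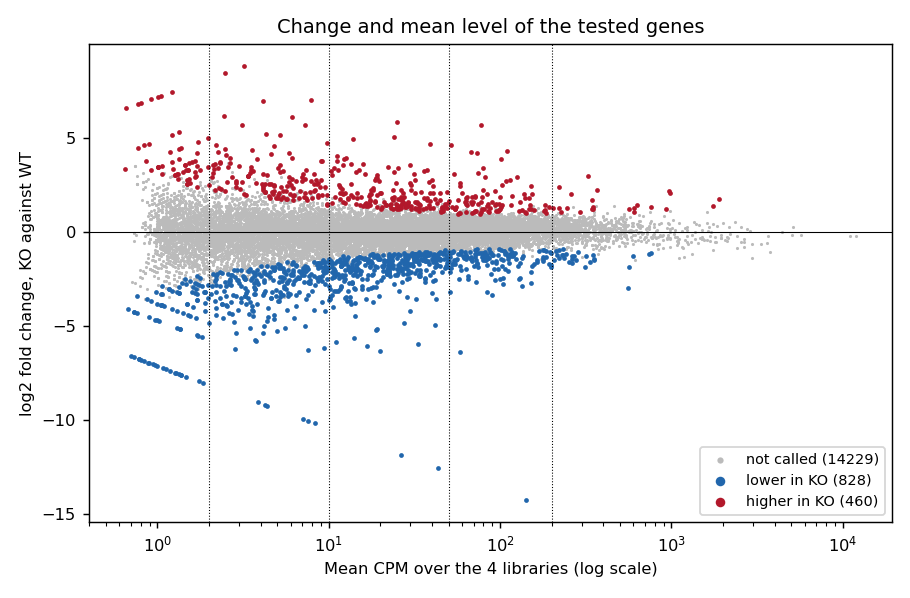
Fitted log2 fold change of KO against WT (vertical axis) against mean CPM on a log scale (horizontal axis) for 15517 tested genes, with 460 called higher in red, 828 called lower in blue and the others in grey, and dotted lines at 2, 10, 50 and 200 CPM. Called genes at 200 CPM and over lie within 3.02 log2 units of 0, and the points farthest below 0 include genes with no count in KO, such as Klf4, whose fitted value depends on the prior count and is no measure of size.

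Position also moved with the result. Genes on chromosome 14 had a median log2 fold change of -0.63 over 474 tested genes, of which 83 fell and 16 rose (20.9% called), against 0.20 for chromosome X and between -0.09 and 0.11 for the other autosomes. Along chromosome 14 the median was 0.29 in the first 20 Mb, -0.20 from 20 to 40 Mb, -0.75 from 40 to 60 Mb and -0.85 from 60 to 80 Mb. Beyond that it was -0.26 over 10 genes from 80 to 100 Mb, -0.92 over 27 genes from 100 to 120 Mb and -1.20 over 19 genes from 120 to 140 Mb. Of 5 tested genes on chromosome Y, 4 were called lower (Ddx3y, Eif2s3y, Uba1y and Uty, named after their values were seen), with counts from 61 for Uba1y to 845 for Eif2s3y in the WT libraries and 0 for all 4 genes in both KO libraries. DNA copy number was not measured, so a difference in copy and one in expression per copy cannot be told apart for the genes there. Of the genes named by rule, Ctsb, Ephx2, Pck2, Nfatc4, Tnfrsf19, Grid1, Dusp13 and Rnaseh2b fell and lie on chromosome 14, and Loxl2, Il17d, Polr3a and Pde12 rose there. Without KO library F, edgeR FDRs were 0.055 for Tnfrsf19, 0.059 for Nfatc4, 0.051 for Rnaseh2b, 0.23 for Pde12 and 0.22 for Polr3a, and the last had one of 0.052 without KO library B. Without chromosomes 14 and Y, 1185 genes were called, 444 higher and 741 lower, with 41 receptors, 59 transporters and channels, 98 transcription factors, 179 enzymes and 27 secreted signals among them.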

How the data were processed

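The authors counted reads per Ensembl gene, and the deposited tables hold these raw counts as integers. Per the submitters' processing notes, HISAT2 2.1.0, HTSeq 0.9.1 and the build mm10 were used in the series. The annotation release, strand setting and batch were not given in the sources used here. Records not counted to a gene (64.0% to 65.5% per library) were left out. They include records outside annotated genes (37.2% to 40.5%) and reads without a unique alignment (17.5% to 18.9%). The rest were ambiguous, of low alignment quality or not aligned. WT columns matched the replicate numbers of the labels, while the KO columns are marked by letters (B and F) and were taken as KO libraries without a number.

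Genotypes were compared in R 4.3.3 with edgeR 4.0.16 (filterByExpr, TMM, two-sided quasi-likelihood F-test on genotype alone, Benjamini-Hochberg FDR 0.05 over 15517 genes). The common biological coefficient of variation was 0.256, with 2 residual and 6.29 prior degrees of freedom. The labels call the replicates biological without naming their source, so p-values measure the spread between these libraries. The KO against WT test was tried on simulated counts of 15104 genes, where it found 23 of 100 changes of 2-fold, 88 of 100 of 4-fold and 12 genes without a change. Those 12 false calls made up a larger share of the simulated calls than the FDR of 0.05 allows for. Recovery was not split by level of expression, so these rates do not give the power for weakly expressed genes. CPM is per TMM-scaled library, and folds are ratios of mean CPM unless stated. Replicate ratios used CPM plus 0.5. A group with no count was set to 3 counts over its libraries (0.179 CPM in KO, 0.161 in WT).

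Symbols came from the supplied name table (52403 matched), positions and biotypes from RefSeq on GRCm38.p6 (14355 tested genes matched). Classes and families were assigned by symbol patterns, so a gene can be misplaced by its name. Members, lists and tests were chosen with earlier results of these data known. Genes were named by rule. Per class these were up to 4 higher and 4 lower called genes that changed most on the absolute log2 scale, at a mean of at least 5 CPM and with no overlap between genotypes. Stem cell and lineage markers, pseudogenes and predicted genes (kept for lncRNAs) were left out. To these came 5 per direction at 200 CPM and over, up to 3 by smallest p per family with 4 or more calls, and Klf4. Of these 140 genes, 55 overlap another annotated coding or lncRNA gene. They include Slc16a3 (Csnk1d), Usp44 (Metap2), Ctsb (Fdft1) and Atp1b1 (Nme7), and without the strand setting reads in such overlaps are uncertain. Alternatives were RLE size factors, library totals, DESeq2 1.42.0, limma 3.58.1 voom, other filters and leaving out each library. HiChIP samples were not used here. Results for some genes are not reported here.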

Additional observations from a re-analysis of the deposited data

How the results depend on the processing

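Klf4 was lower in every setting. The balance of higher and lower calls turned in some: without WT replicate 1 for transcription factors (91 higher, 79 lower), lncRNAs (74, 53) and genes at 50 to 200 CPM (347, 311); without WT replicate 2 for core machinery (15, 6); without KO library B for lncRNAs (27, 25) and genes at 200 CPM and over (13, 11); without KO library F for secreted signals (15, 14), core machinery (5, 1) and genes at 200 CPM and over (8, 6); and without chromosomes 14 and Y for genes at 200 CPM and over (23, 22). The cause was not tested. RLE size factors, library totals, limma voom, a mean of at least 1 CPM, a 2-fold minimum and leaving out chromosomes 14 and Y kept every count by class and by level within 1.5 times its value. With no filter on low counts, edgeR tested 27254 genes and called 2, both at 50 to 200 CPM: 1 transporter or channel and 0 receptors, transcription factors, enzymes, secreted signals, core machinery genes and lncRNAs, and 0 in each of the other 4 ranges of level, while 4021 genes had an unadjusted p under 0.05. Klf4 then had a log2 fold change of -14.3 and an edgeR FDR of 0.073. The cause was not tested. DESeq2 called 15 core machinery genes, 85 genes under 2 CPM, 345 at 50 to 200 CPM and 96 at 200 CPM and over. Of lncRNAs with names only, 9 of 116 were called.

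Leaving out 1 library at a time gave 1013 (without KO library B) to 2517 calls (without WT replicate 1) in all. By class, the range was 40 to 92 for transporters and channels, 86 to 170 for transcription factors, 136 to 330 for enzymes, 6 to 61 for core machinery and 52 to 127 for lncRNAs. By level it was 377 to 563 at 2 to 10 CPM, 371 to 943 at 10 to 50 CPM, 120 to 658 at 50 to 200 CPM and 14 to 153 at 200 CPM and over. A fit with 1 library in a genotype assumes that it varies like the other genotype. Besides the fit with no filter, which lost all 139 named calls, 36 of 139 named genes lost their call in at least 1 setting. No paired analysis was possible because the KO columns carry letters and not replicate numbers. Depth limits weak genes: the median standard error of the log2 fold change was 0.65 under 2 CPM and 0.27 at 200 CPM and over.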

Other observations

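Genes in none of the functional classes made up most of the calls, 786 of 1288, with 272 higher and 514 lower of 10693 tested. By annotated biotype, 28 of 654 tested pseudogenes (4.28%) were called, 8 higher and 20 lower, and 10 of 106 transcribed pseudogenes (9.43%), 2 higher and 8 lower, against 1139 of 12782 protein-coding genes (8.91%).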
